A study of Mus musculus with 10 samples.

Results

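The proteasome was followed across male C57/Bl6 mouse embryonic stem cells (mESCs) grown by 2 culture methods. The genes described are the 48 whose names consist of Psma, Psmb, Psmc, Psmd, Psme, Psmf or Psmg and a number, out of 25965 features in the RNA-seq table, so the pseudogene Psme2b-ps and the meiotic recombination factor Psmc3ip were not taken. They hold the subunits of the proteasome, its activators and its assembly chaperones. The study derived 2 independent male lines under the Keniry2022 conditions and split each at passage 0 (p0). One part stayed under Keniry2022, in suspension on untreated plastic at higher density and with daily passage, and the other was moved to Mulas2019, attached to gelatin and passaged every second day. All cells, p0 included, were kept in 2i medium, a defined medium with kinase inhibitors that holds mESCs in the naive state. Each of the 5 groups (p0, p10 Keniry2022, p20 Keniry2022, p10 Mulas2019 and p20 Mulas2019) had 2 libraries, 1 from each line, and p20 Keniry2022 and p10 Mulas2019 had been in culture for the same number of days. The 4 libraries of a method are therefore 2 lines at 2 passages, not 4 derivations, and p-values measure the spread between these libraries.

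The proteasome is the protease that removes proteins marked with ubiquitin. Its 20S core is a barrel of stacked alpha and beta rings, and 3 beta subunits, encoded by Psmb5, Psmb6 and Psmb7, carry the active sites inside it. The 19S regulatory particle caps the barrel. Its base holds a ring of ATPases (Psmc genes), which unfold the substrate, and its lid (most Psmd genes) holds the enzyme that takes the ubiquitin off. Dedicated chaperones assemble the core (Psmg genes) and the base (Psmd5, Psmd9 and Psmd10) and leave the finished particle. Immune cells and interferon-treated cells replace the catalytic subunits by Psmb8, Psmb9 and Psmb10. Embryonic stem cells are known for high proteasome activity, and the transcription factor Nfe2l1 raises proteasome genes as a set when degradation falls short.

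Depth was similar across the 10 libraries, with 24053996 to 30236823 reads, of which 85.9% to 88.7% lay in features. Values are log2 RPKM (reads per kilobase of exon, scaled to library depth). All 8 naive mESC markers looked at (Pou5f1, Sox2, Nanog, Zfp42, Esrrb, Tfcp2l1, Klf4 and Tbx3) lay between 4.73 and 9.23 in every library. Reads on the Y chromosome numbered 4578 to 8140 in 5 libraries and 13 to 132 in the other 5, although all cells are labelled male. The low ones carry replicate number 1 in each group but p20 Keniry2022, where replicate 2 was low, so the 2 replicate numbers of that group may be exchanged between the lines. The study describes loss of the Y chromosome during the derivation of a line, before the culture conditions were applied. p0 replicate 1 stood apart from the other libraries. Over all 11654 features tested in the comparison of methods, its difference from p0 replicate 2 had an SD of 0.613, against 0.229 to 0.265 between the replicates of the other groups. It was higher than p0 replicate 2 in 40 of 45 tested members, by a median of 0.37. Comparisons with p0, and those of the methods at each passage, are given with and without it.

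**Figure D1:**
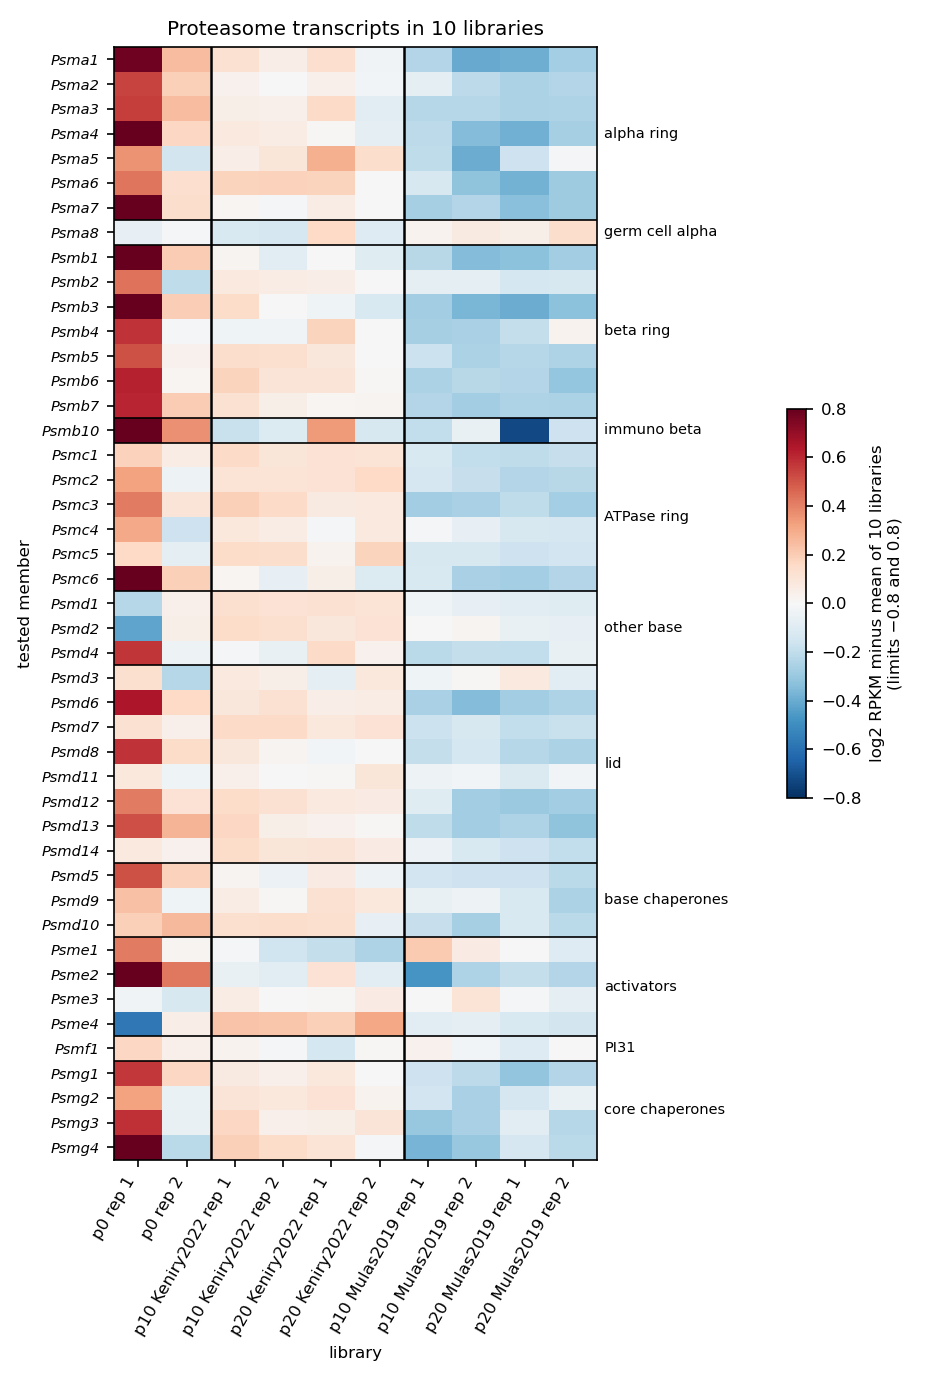
Each row is a proteasome gene and each column a library, and the colour gives log2 RPKM minus the mean of that gene over the 10 libraries (red above, blue below, limits at 0.8 in either direction, beyond which the colour is saturated). Most rows are red in p0 replicate 1, pale red under Keniry2022 and blue under Mulas2019. Rows without this pattern include Psma8, Psmd3, Psme1, Psme3 and Psmf1. Psmb1, Psmb10 and Psme2 are mostly below their mean under Keniry2022. Psmd1, Psmd2 and Psme4 are blue in p0 replicate 1.

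The constitutive proteasome was abundant. The highest mean levels over the 10 libraries were those of Psmb1 (7.89 log2 RPKM), Psmb7 (7.71), Psma6 (7.55), Psmb4 (7.52) and Psmc6 (7.51). Of the 45 members tested, 12 lay within 1 log2 unit of Psmb1 and 24 were above a mean of 6. The median of the member means was 6.63 in the alpha ring, 7.37 in the constitutive beta ring, 6.98 in the ATPase ring, 6.48 in the other base subunits, 6.0 in the lid and 5.42 in the core chaperones. Neighbours in the order of levels were often too close to rank: in 15 of 44 neighbouring pairs the gap was smaller than the SD of the higher gene within methods. The bottom of the order among tested members was held by Psmd9 (2.20), Psmb10 (2.06), Psmf1 (2.04) and Psme2 (1.5). Psmb8, Psmb9 and Psmb11 were below the filter (log2 RPKM above 0 in at least 50% of the libraries) and were not tested. Reads in the 48 members made up 0.893% to 0.931% of all reads in features under Keniry2022, 0.774% to 0.795% under Mulas2019, and 1.15% and 0.907% in p0 replicates 1 and 2.

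Proteasome transcripts were higher under Keniry2022 than under Mulas2019 in nearly every subcomplex. With p10 and p20 pooled (4 libraries per method), limma called 38 of 45 tested members higher under Keniry2022 and 1 lower at a Benjamini-Hochberg adjusted p below 0.05. Of all 11654 features tested, 25.9% were called higher and 25.5% lower. The median difference over the tested members was 0.27 log2 units, against -0.00302 over all features, and 42 of 45 were positive. In 38 of the 45 (84.4%) the lowest of the 4 Keniry2022 values exceeded the highest of the 4 Mulas2019 values, which was so for 23.1% of all features. The differences were modest in size. The largest, in Psma6, was 33.2%. The 7 members of the alpha ring, the 7 of the constitutive beta ring, the 6 ATPases, the 3 other base subunits, the 3 base chaperones and the 4 core chaperones were all called higher, as were 6 of 8 lid subunits. In each of these subcomplexes the direction was the same under median centring and under quantile normalisation, apart from the lid subunit Psmd3, which was not called in the main comparison and turned to -0.08 under quantile normalisation. Under that normalisation the median of the members was 0.15 and 31 were called. Psma2 (0.06), Psmb4 (0.02) and Psmc6 (0.03) were among those no longer called. A model that also holds the p0 libraries and so shares their wider spread called 12. The share over all features is not given here for this model or for quantile normalisation. In bulk RNA, a change in how many cells of a kind were present and a change in RNA per cell cannot be told apart, and RPKM is relative to the total of each library.

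**Figure D2:**
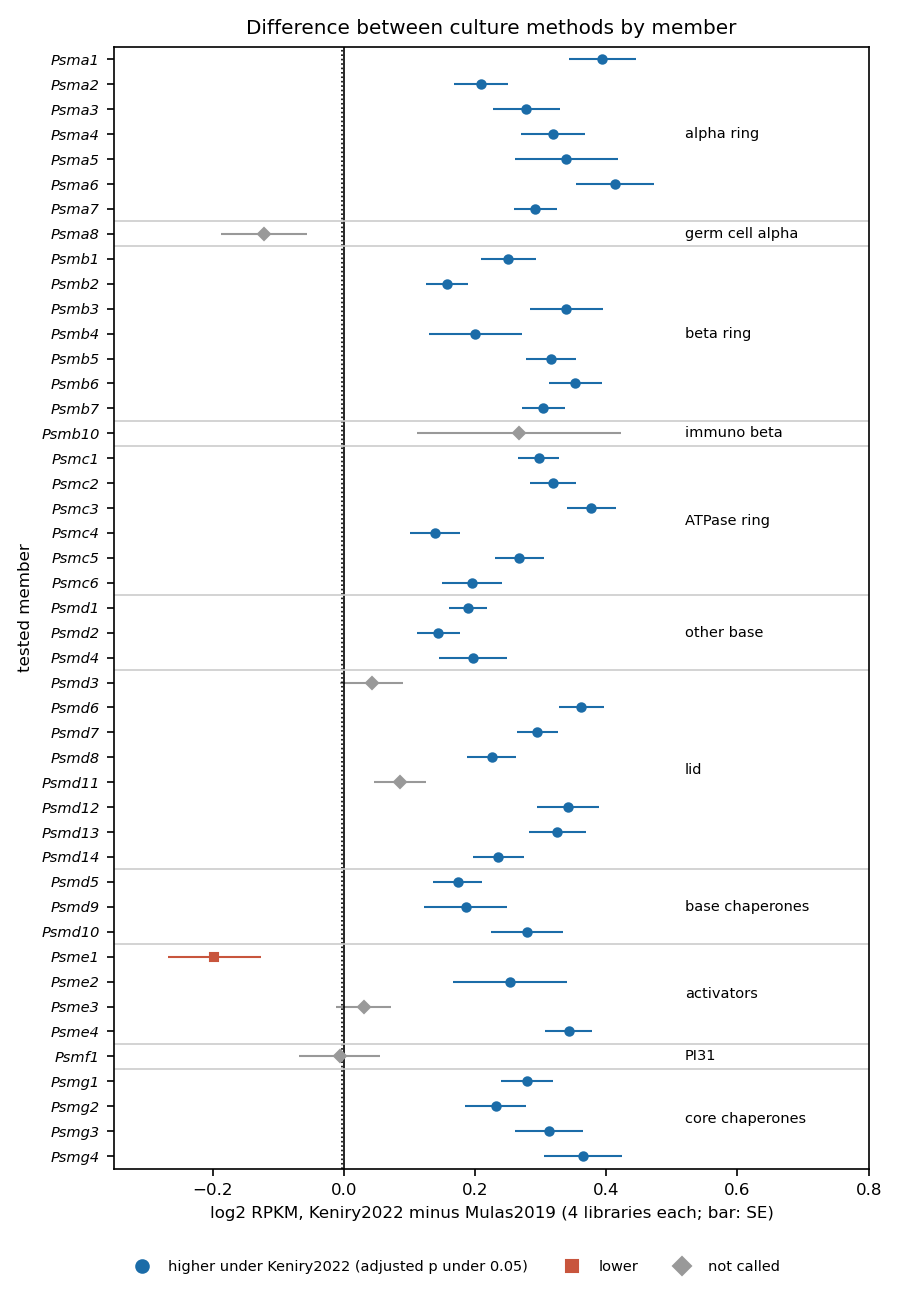
Each point is the difference in mean log2 RPKM of a member, Keniry2022 minus Mulas2019 (4 libraries per method), with its SE from limma as the bar. Circles are members called higher, the square is Psme1 (called lower), diamonds were not called, and the dotted line marks the median of all 11654 features tested (-0.00302). The points of the alpha ring, beta ring and ATPase ring lie between 0.14 and 0.41.

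Summing RPKM within a subcomplex shows the same order of libraries on a linear scale, without a test. The alpha ring summed to 722 ± 26.9 and 576 ± 29.1 RPKM under Keniry2022 and Mulas2019 respectively (mean ± SD, n = 4 each). For the beta ring the sums were 1065 ± 32.5 and 883 ± 17.4 RPKM, for the ATPase ring 743 ± 13 and 620 ± 14.1 RPKM and for the lid 650 ± 16.2 and 542 ± 11.2 RPKM. The 3 other base subunits came to 289 ± 4.29 and 256 ± 3.56 RPKM and the 4 core chaperones to 187 ± 5.87 and 152 ± 3.2 RPKM. In each of these 6 sums the lowest Keniry2022 library was above the highest Mulas2019 library. The ratio of the means ran from 1.13 in the other base subunits to 1.25 in the alpha ring. In p0 the sums were 1088 and 777 for the alpha ring and 1730 and 1101 for the beta ring in replicates 1 and 2, so the second p0 library was close to the Keniry2022 libraries and the first was above all others. The other base subunits differed, with 273 and 275 in the p0 libraries.

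**Figure D3:**
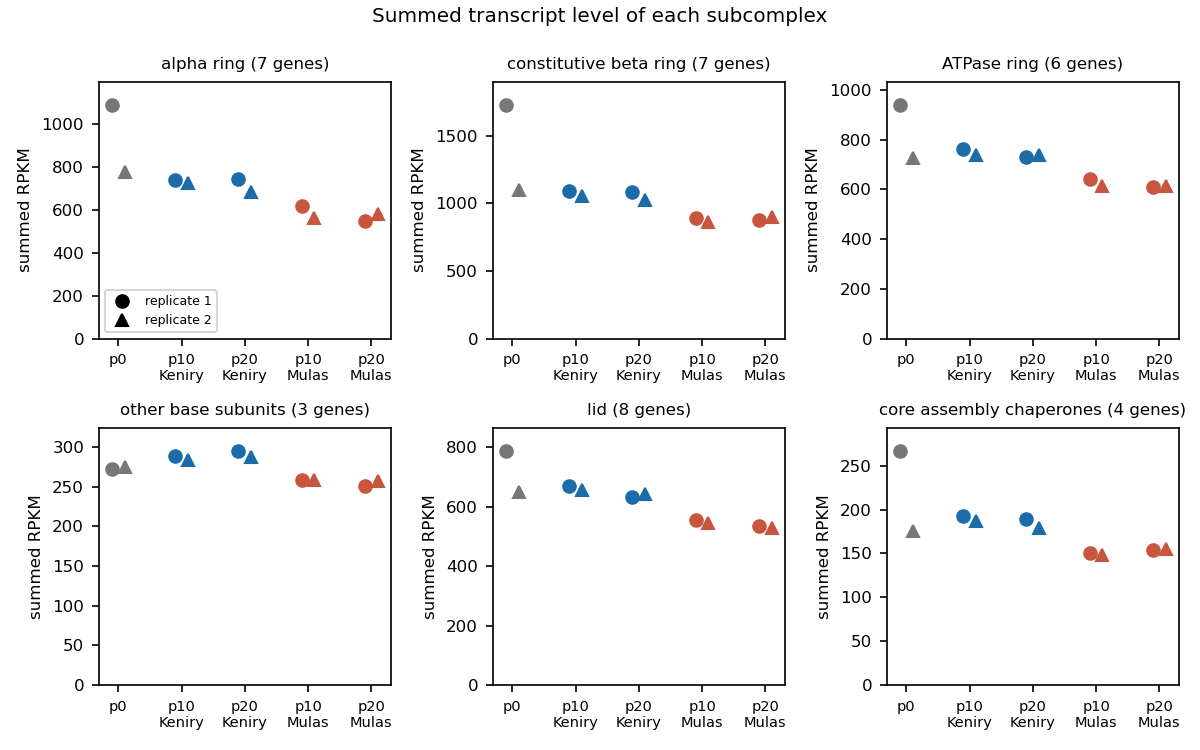
Summed RPKM (linear, from 0) of 6 subcomplexes in each of the 10 libraries, with circles for replicate 1 and triangles for replicate 2. In each panel the 4 Keniry2022 libraries (blue) lie above the 4 Mulas2019 libraries (red), and p0 replicate 1 (grey circle) is the highest library except in the panel of the other base subunits.

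The alpha ring forms the outer rings of the barrel and its gate. Its largest difference was in Psma6 (chr12:55384222-55418454, plus strand, GRCm38 as in GENCODE vM21, as for all genes). Psma6 measured 7.73, 7.74, 7.73 and 7.56 log2 RPKM under Keniry2022 (p10 replicates 1 and 2, then p20 replicates 1 and 2, the order used throughout), 7.42, 7.23, 7.17 and 7.27 under Mulas2019 and 7.98 and 7.69 in p0. The methods did not overlap, and p20 Keniry2022 replicate 2 was the lowest of its method. The difference was 0.41 ± 0.06 (± SE, as for all differences), adjusted p = 0.000387. Psma1 was next, with 7.16, 7.10, 7.18 and 7.01 under Keniry2022 and 6.81, 6.64, 6.65 and 6.77 under Mulas2019. It differed by 0.39 ± 0.05 (adjusted p = 0.000228). The smallest in this ring was Psma2, at 7.50, 7.46, 7.51 and 7.45 against 7.39, 7.26, 7.21 and 7.23. Its methods did not overlap either, and the difference was 0.21 ± 0.04, adjusted p = 0.00237. Once exon length and GC content were corrected for, Psma2 was at -0.04 (adjusted p = 0.584). The other 4 (Psma3, Psma4, Psma5 and Psma7) lay between 0.28 and 0.34. Psma8 is the alpha subunit of germ cells that replaces Psma7 in meiosis. It measured 4.01, 4.0, 4.29 and 4.03 under Keniry2022, 4.16, 4.20, 4.18 and 4.27 under Mulas2019 and 4.07 and 4.12 in p0. These values overlap, and the difference of -0.12 ± 0.07 was not called (adjusted p = 0.143). Without p20 Keniry2022 replicate 1, the highest library of the gene, it was -0.19 with adjusted p = 0.00496.

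The beta ring carries the active sites. Psmb5 (chr14:54614120-54617995, minus strand), the chymotrypsin-like subunit, measured 7.52, 7.50, 7.46 and 7.38 under Keniry2022, 7.20, 7.12, 7.14 and 7.12 under Mulas2019 and 7.88 and 7.41 in p0. Psmb6, the caspase-like subunit, measured 7.13, 7.05, 7.05 and 6.95, 6.69, 6.72, 6.71 and 6.64 and 7.56 and 6.96 in the same order. Psmb7, the trypsin-like subunit, measured 7.83, 7.76, 7.73 and 7.74, 7.48, 7.44, 7.47 and 7.46 and 8.32 and 7.91. In all 3 genes the methods were clear of each other, and the spread within Mulas2019 was 0.02 to 0.04 (SD, n = 4). The differences were 0.32 ± 0.04 for Psmb5, 0.35 ± 0.04 for Psmb6 and 0.30 ± 0.03 for Psmb7, with adjusted p = 0.000179, 0.000134 and 0.000104. Psmb6 had the largest difference of the ring. Psmb2, a subunit without an active site, had the smallest, at 6.53, 6.52, 6.51 and 6.46 against 6.38, 6.38, 6.32 and 6.33. That is 0.16 ± 0.03 (adjusted p = 0.00257). Psmb1 and Psmb3 differed by 0.25 and 0.34. Psmb4 differed by 0.20 ± 0.07 with adjusted p = 0.036 and overlapped between methods, since p20 Mulas2019 replicate 2 (7.55) was above 3 of the Keniry2022 libraries. Its call was lost when any one of 5 libraries was left out: p20 Keniry2022 replicate 1 (0.15), p20 Keniry2022 replicate 2 (0.21), p10 Mulas2019 replicate 1 (0.17), p10 Mulas2019 replicate 2 (0.17) or p20 Mulas2019 replicate 1 (0.19).

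The inducible forms of the catalytic subunits were scarce. Psmb8, the counterpart of Psmb5, had 0 reads in 7 libraries and 1 or 2 reads in the other 3. In the 7 libraries at 0, set against 3 reads per library, the upper limit that a count of 0 allows, Psmb5 was at least 3258.5-fold higher than Psmb8 per length. Psmb9, the counterpart of Psmb6, had 23 to 56 reads per library and lay between -2.16 and -0.86 log2 RPKM. That is 189-fold to 639-fold below Psmb6. Under Mulas2019 it measured -1.56, -1.12, -0.86 and -1.29 and under Keniry2022 -1.69, -1.92, -2.16 and -1.67, so the Mulas2019 libraries were above the Keniry2022 libraries without overlap, but the gene was below the filter and was not tested. Exons of Psmb9 overlap those of Tap1 on the opposite strand, and the strand setting of the counting is not given in the sources used here. Tap1, the peptide transporter of class I presentation, was called lower under Keniry2022 (-0.83 ± 0.19, adjusted p = 0.00451), the direction in which the Psmb9 values lie. Psmb10, the counterpart of Psmb7, was the most abundant of the 3, at 1.89, 1.95, 2.40 and 1.93 under Keniry2022, 1.86, 2.00, 1.34 and 1.90 under Mulas2019 and 2.91 and 2.43 in p0. Both p0 libraries were above all others. The methods overlapped, and the difference of 0.27 ± 0.16 was not called (adjusted p = 0.174). Psmb7 exceeded Psmb10 by 40.1-fold to 69.8-fold per length. Psmb11, the beta subunit of the thymus, had 0 reads in 8 libraries and 1 read in 2.

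**Figure D4:**
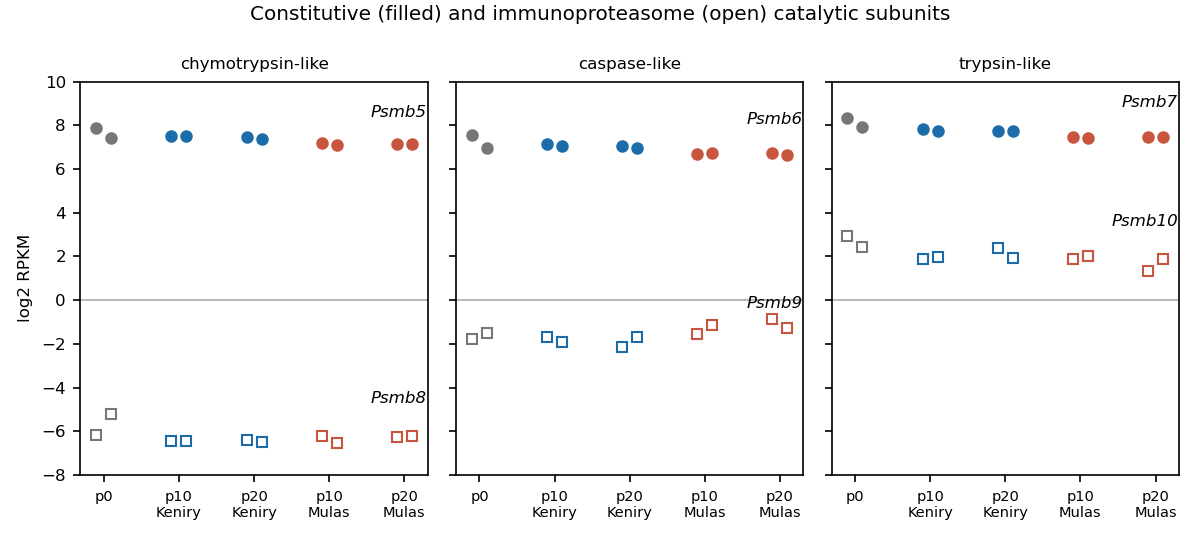
Log2 RPKM of each constitutive catalytic subunit (filled circles) and its immunoproteasome counterpart (open squares) in the 10 libraries, replicate 1 to the left of replicate 2 in each group. The gap is 12.6 to 14.1 log2 units for Psmb5 and Psmb8, whose values at 0 reads rest on the entry of 0.9 reads, 7.56 to 9.32 for Psmb6 and Psmb9, and 5.33 to 6.13 for Psmb7 and Psmb10.

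In the base of the 19S particle, the 6 ATPases were all called higher under Keniry2022. Psmc3 (Rpt5, chr2:91054009-91066369, plus strand) had the largest difference. It measured 6.96, 6.92, 6.85 and 6.85 under Keniry2022, 6.50, 6.51, 6.57 and 6.50 under Mulas2019 and 7.19 and 6.88 in p0. Its methods were 0.38 ± 0.04 apart, adjusted p = 6.8e-05. Both p0 libraries lay within or above the range of Keniry2022. Psmc4 had the smallest, at 6.31, 6.29, 6.22 and 6.31 against 6.21, 6.16, 6.10 and 6.09. The gap between the nearest libraries of the methods was narrow, and the difference of 0.14 ± 0.04 had adjusted p = 0.0116. Psmc1, Psmc2 and Psmc5 differed by 0.30, 0.32 and 0.27. Psmc6 differed by 0.20 and was at -0.01 (adjusted p = 0.814) after the correction for exon length and GC content. The scaffold subunits Psmd1 and Psmd2 and the ubiquitin receptor Psmd4 complete the base. Psmd4 measured 6.36, 6.31, 6.52 and 6.41 against 6.15, 6.18, 6.17 and 6.31, with p20 Mulas2019 replicate 2 at the lower edge of the Keniry2022 values. The difference was 0.20 ± 0.05 (adjusted p = 0.0101). Psmd1 differed by 0.19 ± 0.03 (adjusted p = 0.000556). Psmd2 measured 6.78, 6.76, 6.72 and 6.74 under Keniry2022 and 6.64, 6.65, 6.57 and 6.57 under Mulas2019. Its difference of 0.14 ± 0.03 was the smallest of the 3 (adjusted p = 0.00477). In p0, Psmd1 and Psmd2 went against most members: Psmd2 measured 6.21 and 6.68 and Psmd1 6.25 and 6.52, with replicate 1 the lower.

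Of the lid subunits, 6 were called higher and 2 were not called. Psmd6 had the largest difference, at 6.17, 6.2, 6.13 and 6.13 under Keniry2022, 5.82, 5.73, 5.80 and 5.83 under Mulas2019 and 6.72 and 6.23 in p0. Its difference of 0.36 ± 0.03 had the smallest adjusted p of all members, 5.96e-05. Psmd12 and Psmd13 followed with 0.34 and 0.33, and Psmd7 with 0.30. Psmd14, the deubiquitinase that cuts the chain off the substrate, measured 6.07, 6.02, 6.03 and 5.99 against 5.88, 5.80, 5.76 and 5.73. The methods did not overlap and the difference was 0.24 ± 0.04 (adjusted p = 0.000792). Psmd8 differed by 0.23. Psmd3, a scaffold of the lid, had the smallest difference. It measured 5.89, 5.86, 5.74 and 5.90 under Keniry2022 and 5.78, 5.83, 5.90 and 5.73 under Mulas2019, which overlap. Its difference was 0.04 ± 0.05, adjusted p = 0.482. Psmd11 measured 4.20, 4.16, 4.17 and 4.26 against 4.12, 4.14, 4.05 and 4.14, a difference of 0.09 ± 0.04 that was not called (adjusted p = 0.0939). After the correction for exon length and GC content both were called, at 0.21 for Psmd3 and 0.17 for Psmd11.

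The activators did not move as 1 group. PA28, the cap that opens the core without ATP, is built from Psme1 and Psme2. Psme1 (chr14:55578123-55581529, plus strand) was the only member called lower under Keniry2022. It measured 3.69, 3.55, 3.52 and 3.47 under Keniry2022, 3.92, 3.78, 3.72 and 3.61 under Mulas2019 and 4.13 and 3.73 in p0. The methods overlapped, since p10 Keniry2022 replicate 1 lay above p20 Mulas2019 replicate 2, and the difference was -0.20 ± 0.07 with adjusted p = 0.0386. The call of Psme1 was lost without p10 Keniry2022 replicate 2 (-0.20), p20 Keniry2022 replicate 1 (-0.19), p20 Keniry2022 replicate 2 (-0.17), p10 Mulas2019 replicate 1 (-0.14), p10 Mulas2019 replicate 2 (-0.19) or p20 Mulas2019 replicate 1 (-0.21), and under median centring (-0.19, adjusted p = 0.0611).

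Psme2 measured 1.43, 1.41, 1.61 and 1.41 against 1.02, 1.25, 1.31 and 1.26, with 2.34 and 1.92 in p0. The methods did not overlap and p0 was above both. It was called higher by 0.25 ± 0.09 (adjusted p = 0.0322). The call was lost without p10 Keniry2022 replicate 1 (0.26), p10 Keniry2022 replicate 2 (0.27), p20 Keniry2022 replicate 1 (0.21), p10 Mulas2019 replicate 1 (0.19) or p10 Mulas2019 replicate 2 (0.27). Psme2 had only 87 to 215 reads per library, while the pseudogene Psme2b-ps, listed as a feature of its own, had 566 to 1231. Reads of a gene and a near-identical copy can be split by the counting, so the level of Psme2 is uncertain. The reads of both together came to 33.0 ± 2.64 RPM (reads scaled to the library total without length) under Keniry2022 and 26.2 ± 1.22 under Mulas2019 (SD, n = 4 each), without overlap and without a test. Psme1 alone had 26.1 ± 1.78 and 30.0 ± 2.71 RPM. Psme3, the nuclear activator PA28 gamma, measured 6.40, 6.35, 6.36 and 6.41 and 6.34, 6.45, 6.34 and 6.27. The methods overlapped and the difference of 0.03 ± 0.04 was not called (adjusted p = 0.566). Psme4, the large activator PA200, measured 6.12, 6.12, 6.08 and 6.2 under Keniry2022, 5.81, 5.82, 5.77 and 5.75 under Mulas2019 and 5.32 and 5.95 in p0. It was called higher by 0.34 ± 0.04 (adjusted p = 9.14e-05), and p0 replicate 1 was the lowest of the 10 libraries. Psmf1 encodes PI31, a proteasome-binding protein, and measured 2.07, 2.03, 1.90 and 2.05 against 2.08, 2.02, 1.94 and 2.04. These values overlap, and its difference of -0.01 ± 0.06 was the closest to 0 of all members (adjusted p = 0.941).

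Both families of assembly chaperones were called higher under Keniry2022. Among the core chaperones, Psmg4 (PAC4) measured 5.75, 5.70, 5.67 and 5.55 under Keniry2022, 5.19, 5.26, 5.43 and 5.34 under Mulas2019 and 6.37 and 5.35 in p0. The methods did not overlap and the difference was 0.36 ± 0.06 (adjusted p = 0.000743). Psmg3, with which Psmg4 pairs, differed by 0.31 ± 0.05 (adjusted p = 0.000823). Psmg1 and Psmg2 form the other pair. Psmg1 differed by 0.28 ± 0.04 (adjusted p = 0.000381), and Psmg2, the smallest of the family, by 0.23 ± 0.05 (adjusted p = 0.00235). Among the base chaperones, Psmd10 (gankyrin) had the largest difference, at 4.16, 4.18, 4.17 and 3.97 against 3.85, 3.77, 3.92 and 3.82. It was 0.28 ± 0.06, adjusted p = 0.00222. Psmd5 differed by 0.17 ± 0.04 (adjusted p = 0.00339). Psmd9 had the lowest level of the 3, at 2.26, 2.21, 2.32 and 2.28 against 2.14, 2.16, 2.08 and 1.95. It was called higher by 0.19 ± 0.06 (adjusted p = 0.0306). The call of Psmd9 was lost without p10 Keniry2022 replicate 1 (0.19), p20 Keniry2022 replicate 1 (0.17), p20 Keniry2022 replicate 2 (0.18), p20 Mulas2019 replicate 1 (0.18) or p20 Mulas2019 replicate 2 (0.14).

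The difference between methods also varied with exon length, and some marker genes differed between the methods. Exons of Psma4, Psma5, Psmb7, Psmc3, Psmd1, Psmd3, Psmd9, Psmd13 and Psme1 overlap a gene on the opposite strand, as those of Psmb8 and Psmb9 do, and exons of Psmd1 and Psmg3 one on the same strand, so reads there cannot be assigned with certainty. Across all features tested, the median difference between methods was 0.14 in features with exons under 1500 bases, 0.05 from 1500 to 3000 bases and -0.06 from 3000 bases. The tested members had 0.28 (15 genes), 0.27 (18 genes) and 0.19 (12 genes) in the same classes, so the median of the members was above that of all features in each class. When exon length and GC content were corrected for, an alternative added after the data had been seen, 31 of 45 members were called. The share of all features called in that fit is not given here, so the count cannot be set against it. The median over all tested members in that fit was 0.21. The 8 naive markers, all of them detected, summed to 1387 to 1531 RPKM under Keniry2022 and 1278 to 1308 under Mulas2019. Pou5f1 and Nanog carry most of this sum. Klf4 went the other way without overlap (5.18 to 5.46 log2 RPKM under Keniry2022, 5.57 to 5.94 under Mulas2019), and Sox2 overlapped (7.52 to 7.70 and 7.63 to 7.79). Esrrb, Tfcp2l1 and Tbx3 overlapped as well, so only Pou5f1, Nanog and Zfp42 were higher under Keniry2022 without overlap. The 3 leukocyte markers (Ptprc, Cd74 and Cd52) summed to 0.564 to 0.985 and 1.2 to 1.77, with Ptprc at or near 0 reads throughout. The 3 trophoblast markers (Cdx2, Elf5 and Eomes) summed to 1.92 to 2.49 and 2.20 to 3.45. The 4 fibroblast markers, with Col1a2 at or near 0 reads, had 0.612 to 1.13 and 0.808 to 1.47, and the 4 primitive endoderm markers 1.36 to 1.97 and 1.60 to 2.38. The trophoblast, fibroblast and primitive endoderm sums overlapped between methods. Among the fibroblast markers Pdgfrb was higher under Mulas2019 without overlap, while Col1a1 overlapped and Thy1 leaned the other way with overlap. The part of the marker genes in the result was not tested.

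**Figure D5:**
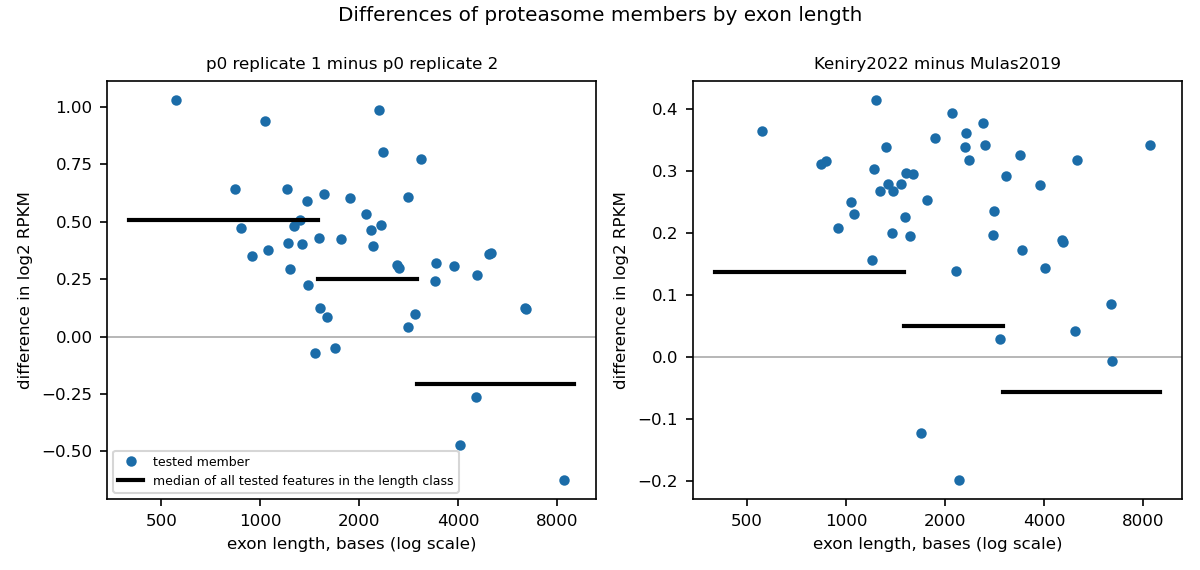
Difference in log2 RPKM of each tested member (points) against exon length on a log scale, between the p0 replicates (left) and between methods (right), with black bars for the median of all tested features under 1500 bases, from 1500 to 3000 and from 3000. Points fall with length on the left (r = -0.52 over the 45 members), where the bars go from 0.51 to -0.21. On the right r is -0.26 over the same members, and most points lie above the bars.

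Since most members differed in the same direction, their promoters were examined for shared motifs. Promoter windows came from RefSeq (GRCm38.p6, 250 bases before to 50 after the start) and covered 40 of the 48 members. Motifs were searched on both strands. CCGGAAG, the core that ETS factors bind, was present in 14 of 40 members (35%). It was present in 9.9% of all 27025 genes with a window and in 21.6% of the 8012 with a window among the features tested. TGACNNNGC, the antioxidant response element to which Nfe2l1 and its relatives bind, was present in 6 of 40 (15%), against 14.0% of all genes and 17.3% of tested ones. CCAAT was present in 35% of members and 41.1% of all genes, CACGTG in 10.0% and 8.1%, GCATGCGC in 7.5% and 3.0%, and TATAAA in 10.0% and 15.7%. Among the tested genes the shares were 44.0% for CCAAT, 12.6% for CACGTG, 6.7% for GCATGCGC and 8.0% for TATAAA. For TGACNNNGC, CACGTG and TATAAA the share of tested genes thus lies on the other side of the members' share than that of all genes. These counts are descriptions of the letters in the windows. The lines show, 5′ to 3′ on the strand of the gene, the stretch around the match closest before the start in 4 members with CCGGAAG from different subcomplexes, with the match in capitals (its reverse complement reads CTTCCGG).

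Psmd6: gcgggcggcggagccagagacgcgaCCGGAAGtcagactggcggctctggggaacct
Psmc1: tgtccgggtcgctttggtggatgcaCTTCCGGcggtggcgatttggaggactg
Psma6: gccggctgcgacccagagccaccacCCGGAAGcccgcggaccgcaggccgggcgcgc
Psmg1: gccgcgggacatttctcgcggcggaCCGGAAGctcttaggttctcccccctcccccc

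Psmd6 and Psma6 had the largest differences of the lid and of the alpha ring. Between the match and the start lie 38 bases in Psmd6, 21 in Psmc1, 125 in Psma6 and 62 in Psmg1. Psma6 has 2 annotated starts, and the match belongs to the downstream one. The other window holds no CCGGAAG. For TGACNNNGC, the catalytic subunits Psmb5 and Psmb6 are shown.

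Psmb5: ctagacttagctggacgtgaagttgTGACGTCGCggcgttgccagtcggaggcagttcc
Psmb6: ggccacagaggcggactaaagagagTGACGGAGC

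The positions are chr14:14120959-14121015 (Psmd6, minus strand), chr12:100110149-100110201 (Psmc1, plus), chr12:55398668-55398724 (Psma6, plus), chr16:95990998-95991054 (Psmg1, minus), chr14:54618009-54618067 (Psmb5, minus) and chr11:70525323-70525356 (Psmb6, plus).

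The counts of related gene lists are to be read against the 25.9% of all features called higher and the 25.5% called lower in the pooled comparison. Among partners of the proteasome with other names, 5 of 8 were called higher under Keniry2022 and 1 lower, with a median of 0.18. Pomp, the chaperone of the maturing beta ring, had the largest difference, with 7.17, 7.18, 7.28 and 7.13 under Keniry2022 and 6.70, 6.72, 6.72 and 6.79 under Mulas2019. The methods were far apart for this gene, and the difference was 0.46 ± 0.04 (adjusted p = 3.98e-05). AI314180, which encodes the adaptor Ecm29, was called lower at -0.34 ± 0.10 (adjusted p = 0.0181). The COP9 signalosome, whose subunits are related to those of the lid and which takes Nedd8 off cullin ligases, was called higher in 10 of 10 genes. Its median was 0.25. Cops5, its catalytic subunit and a relative of Psmd14, had 5.69, 5.68, 5.70 and 5.64 against 5.28, 5.22, 5.25 and 5.30. The difference was 0.42 ± 0.03 (adjusted p = 3.56e-05).

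In the transcription pathway of the proteasome limma called none of 8 tested genes higher and 3 lower (median -0.14). At an unadjusted p below 0.05 there were 4, these 3 and Ngly1, the deglycosylase that processes Nfe2l1, which was at 0.23 ± 0.09 (adjusted p = 0.0567) and so not called. Nfe2l1 measured 6.28, 6.24, 6.23 and 6.27 under Keniry2022 and 6.55, 6.50, 6.44 and 6.36 under Mulas2019. It was called lower, at -0.20 ± 0.04 (adjusted p = 0.00293). Its partner Maff had the largest difference, -0.55 ± 0.14 (adjusted p = 0.00802), and Mafg differed by -0.23 ± 0.03. These are transcript levels, and Nfe2l1 is known to be controlled mainly as a protein. Among ubiquitin shuttles and the p97 unfoldase 4 of 10 were called higher, led by the p97 cofactor Nsfl1c (0.35 ± 0.04, adjusted p = 8.86e-05), and 1 lower, Ubqln1 (-0.15 ± 0.04, adjusted p = 0.00843). Among ubiquitin genes and activating enzymes 2 of 6 were called higher. Ubb, a polyubiquitin gene, differed by 0.24 ± 0.03 (adjusted p = 0.000264). Uba6, an activating enzyme, had the largest rise at 0.25 ± 0.05 (adjusted p = 0.00154). Of 8 tested genes of class I presentation and interferon signalling, none was called higher by limma and 2 were called lower, a share close to that of all features called lower (25.5%). They were also the 2 at an unadjusted p below 0.05. H2-K1, a class I heavy chain, had the largest difference, -1.10 ± 0.09 (adjusted p = 3.91e-05), and Tap1 was the other.

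When the methods were compared at each passage in a model of all 10 libraries, the differences had the same size but few were called. At p10 the median of the members was 0.27 and 2 were called higher, where 3.76% of 11561 features were called higher. These were Psmd7 (0.30 ± 0.07, adjusted p = 0.0421) and Psmc3 (0.44 ± 0.11, adjusted p = 0.0435). With the replicate number as a block, limma called 0 members at p10. At p20 the median was 0.26, and limma called 0 members, with 13 at an unadjusted p below 0.05 and 0 called by voom on the recovered reads. Of all features, 2.15% were called. Matched in days, p20 Keniry2022 against p10 Mulas2019, the median was 0.25 and limma called 0, again with 13 at an unadjusted p below 0.05 and 0 by voom. The share over all features was 6.43%. The spread in this model includes the wide gap between the p0 libraries. Without both p0 libraries, limma called 35 members at p10 (34 higher and 1 lower, against 48.3% of all features), 35 at p20 (36.7% of all features) and 35 matched in days (43.4%). With p0 replicate 1 or p0 replicate 2 alone left out, the count was also 35 in each comparison. Leaving out any one of the 8 libraries at p10 and p20 gave 0 calls at p10, and 0 at p20 and matched in days as before. Where that left 1 library in a group, it was assumed to vary like the other groups. With 1 library left out, the share over all features is not given here for these comparisons, so the counts cannot be set against it.

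The comparison with p0 sets each method against the starting cells. These had been derived under Keniry2022, so only the Mulas2019 cells changed conditions at p0. The effect of the method and that of the change cannot be told apart here. Under Mulas2019, limma called 25 of 45 members lower than p0 at p10 (17.3% of all features were called lower) and 26 at p20 (14.6%), and none higher. The medians were -0.48 and -0.42. The smallest adjusted p at p10 were those of Psmd13 (-0.64 ± 0.10, adjusted p = 0.01), Psme2 (-0.99 ± 0.16, 0.0115) and Psmb7 (-0.66 ± 0.13, 0.0144). At p20 they were those of Psmd13 (-0.68 ± 0.10, 0.0108), Psma3 (-0.65 ± 0.12, 0.0163) and Psmb7 (-0.65 ± 0.13, 0.0172). In the alpha ring 6 of 7 were called lower at p10 and 6 at p20, in the constitutive beta ring 6 and 5 of 7, among the ATPases 3 and 4 of 6, and in the lid 5 and 6 of 8. None of the 3 other base subunits was called at either passage, with medians of 0.04 and -0.000999. Without p0 replicate 1, limma called 23 members lower at p10 and 28 at p20, with medians of -0.25 and -0.25. Without p0 replicate 2 it called 40 at each passage (37 lower and 3 higher), with medians of -0.67 and -0.70. Of all features, 40.5% and 37.5% were called in either direction when p0 replicate 1 was left out, and 71.8% and 71.1% when p0 replicate 2 was. Leaving out p10 Mulas2019 replicate 1 or p10 Mulas2019 replicate 2 gave 0 calls at p10, and leaving out p20 Mulas2019 replicate 1 or p20 Mulas2019 replicate 2 gave 0 at p20. Without any one of the other libraries at p10 and p20, the counts were 11 to 14 at p10 and 14 to 16 at p20.

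Under Keniry2022, limma called 0 members against p0 at p10 and 0 at p20, where 0.199% of all features were called in each. At an unadjusted p below 0.05 there were 16 and 17 members, and voom called 0 in both. The medians were -0.13 and -0.19. These values depended on which p0 library was used. Without p0 replicate 1, the medians were 0.02 and 0.01, and limma called 3 members at p10 and 1 at p20, all higher. Without p0 replicate 2, the medians were -0.37 and -0.46, and it called 34 (31 lower and 3 higher) and 33 (30 lower and 3 higher). The shares over all features, in either direction, were 5.23% and 4.61% when p0 replicate 1 was left out and 64.3% and 66.5% when p0 replicate 2 was. Set against p0 replicate 2 alone, both p10 Keniry2022 libraries were above it in 23 members and below it in 21, while both p10 Mulas2019 libraries were above it in 6 and below it in 38. The comparisons with p0 share the p0 libraries, so their values are not independent.

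From p10 to p20 no member was called within either method. limma called 0 of 45 under Keniry2022 (median -0.03) and 0 under Mulas2019 (median -0.04), where 0% of all features were called in either method. None reached an unadjusted p below 0.05, and voom called 0. The spread in this model includes the wide gap between the p0 libraries. For Psmb1 the SE was 0.25 under Keniry2022, against 0.04 in the pooled comparison of 4 libraries per method. Fits without both p0 libraries are not given here for these comparisons, so small changes with passage may have been missed. The interaction of method and passage was called in 0 members as well, where 0% of all features were called, with 0 at an unadjusted p below 0.05 and 0 by voom. Its values ran from -0.28 to 0.56, and the largest was that of Psmb10, whose reads numbered 89 to 230 per library.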

How the data were processed

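Poly(A) RNA-seq libraries from 10 mESC samples were analysed. The study trimmed single-end reads (trim_galore), aligned them to mm10 and quantified genes in SeqMonk. Its methods name HISAT2, while the submitters' processing notes name TopHat2 2.0.12. The deposited table holds log2 values, which the authors call log2 RPM. From the values they are log2 RPKM: with an exon length for each feature, 100.0% of the values came out as whole reads within 0.1 reads, and features without reads stand at 0.9 reads. Lengths were recovered for all but 9 of 25965 features, and 14247 of the 22592 matched to GENCODE vM21 lay within 5% of its exon length. Depth was 24053996 to 30236823 reads per library, so members with few reads are the least precise.

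Groups were taken from the sample labels. Features above a log2 value of 0 in at least 50% of the libraries in a fit were tested with limma 3.58.1 (R 4.3.3, empirical Bayes with an intensity trend, Benjamini-Hochberg over all features tested, threshold 0.05). The methods were compared with 4 libraries each, and all other comparisons came from a model of 5 groups. Fits were tested on simulated data. The alternatives were quantile normalisation, median centring, other filters, library weights, voom on the recovered reads, passage or replicate number as a term and leaving out libraries. Removal of trends with exon length and GC content, a crossed pairing and the omission of both p20 Keniry2022 libraries were added after seeing the data. The members and gene lists were chosen with earlier results of these data known. Members named with values were those with the largest and smallest difference in each subcomplex, those not called or called against the majority, the catalytic subunits, activators and chaperones, in other comparisons the 3 with the smallest adjusted p, and the called genes with the largest difference in each list. A result of the list of ubiquitin genes and activating enzymes is not reported here.

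The replicate number was taken to stand for the cell line, as the study describes 2 lines. It was used to pair the samples only in the alternative fits with a block. The main fits did not pair the samples. In p20 Keniry2022 the Y-linked reads and the correlations go against the numbers, which may be exchanged there, so a crossed pairing was fitted too. Deviations of replicates from their group means correlated across 11561 features with r = 0.171 to 0.63 among p0, p10 Keniry2022, p10 Mulas2019 and p20 Mulas2019, and with r = -0.698 to -0.118 between p20 Keniry2022 and the others.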

Additional observations from a re-analysis of the deposited data

Results flagged for a closer look

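Each of 90 groups (45 tested members in the 4 libraries of each method) was examined for a library far from the other 3. Dixon's test marked 8, and chance marks about 1 in 20. Psma6 measured 7.5563 log2 RPKM in p20 Keniry2022 replicate 2, below the 7.7281 to 7.7382 of the other Keniry2022 libraries. Psmd10, the base chaperone gankyrin, was low in the same library, at 3.971 against 4.1647 to 4.1787. Psmc2, an ATPase, was high there, at 5.1223 against 5.0772 to 5.08. In p20 Keniry2022 replicate 1, Psma8 was high at 4.2926 against 3.9982 to 4.0261. Psmb10 was high in that library too, at 2.4008 against 1.887 to 1.9535, as was Psme2, at 1.6106 against 1.4065 to 1.4345. Under Mulas2019, Psmd4 was high in p20 replicate 2, at 6.3107 against 6.1543 to 6.1798, and Psmd12 in p10 replicate 1, at 6.4277 against 6.2273 to 6.2497. The p20 Keniry2022 libraries hold 6 of the 8.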

How the results depend on the processing

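With p10 and p20 pooled, limma called 39 of 45 members, and 36 to 38 with any one library left out. The model of all 10 libraries called 12, quantile normalisation 31 and the length and GC correction 31. At p10, where 2 members were called, quantile normalisation called 1, median centring 0, no filter 0, library weights 36, the replicate block 0, the crossed block 0, the fit without both p0 libraries 35 and the length and GC correction 6. At p20, where 0 were called, library weights gave 36, the fit without both p0 libraries 35 and the length and GC correction 4. Matched in days, again from 0, these gave 34, 35 and 4. Leaving out single libraries gave 0 to 35 in each of these 3 comparisons. Against p0 it gave 0 to 34 for p10 Keniry2022, 0 to 33 for p20 Keniry2022 and 0 to 40 for p10 and p20 Mulas2019, where library weights called 0 in either and the length and GC correction 16 at p10. These counts are of members alone, and the share of all features called is not given here for most of these settings. That share moved as well. At p10, 3.76% of all features were called higher in the main model, and 48.3% in either direction without both p0 libraries. A change in these counts is thus not to be read as particular to the members. The cause of these changes was not tested.

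The block on the replicate number called 39 in the pooled comparison and changed no count but that at p10 by over 1.5 times. The pairing with the 2 numbers of p20 Keniry2022 exchanged also called 39. Members not called in the main comparison changed sign. Psmd3 was at -0.0821 under quantile normalisation, and Psme3 at -0.0951 there and -0.0043 with voom. Psmf1 was at 0.0914 with quantile normalisation, 0.0065 with centring, 0.0171 with weights, 0.1001 with the length and GC correction, and 0.0297 without both p20 Keniry2022 libraries. With single libraries left out, Psmf1 ran from -0.0329 to 0.0306, and it was positive without p20 Keniry2022 replicate 1 (0.0306), p10 Mulas2019 replicate 1 (0.0125) or p20 Mulas2019 replicate 2 (0.0014). Of the called members, Psma2 (-0.036) and Psmc6 (-0.0139) changed sign under the length and GC correction. The median over the members ran from 0.147 (quantile) to 0.297 (without p20 Keniry2022 replicate 2).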

Other observations

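Outside the proteasome, the genes whose levels followed the mean profile of the 31 members of the 20S core and 19S particle most closely over the 10 libraries were Gnpnat1 (r = 0.997), an enzyme of amino sugar synthesis, Arpc2 (0.994), a subunit of the actin-nucleating Arp2/3 complex, the mitochondrial ribosomal proteins Mrpl46 (0.993) and Mrpl15 (0.991), and Nop16 (0.992), a nucleolar protein. They were the highest among 6158 features searched, and the libraries, with p0 replicate 1 at one end, are shared by all of them. Within the proteasome, Psma8 (r = -0.551), Psmd2 (-0.350), Psme4 (-0.132), Psme3 (-0.052), Psmd1 (0.051), Psme1 (0.269) and Psmd3 (0.316) followed that profile least.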
